A study of Mus musculus with 6 samples.

Results

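The genes of the proteasome were examined in mouse macrophages grown in culture from bone marrow cells. Members were taken by gene name, as Psma, Psmb, Psmc, Psmd, Psme, Psmf or Psmg followed by a number and nothing else, which gave 48 of the 21959 genes of the deposited table. Of these, 46 held enough reads to be tested, among 10177 genes tested in all. The cells were of wild-type genotype and were kept for 24 h in fresh medium mixed 1 to 1 with medium in which alveolar macrophages, which live in the air spaces of the lung, had been cultured for 48 h. In the 3 libraries P1, P2 and P3 that medium came from alveolar macrophages positive for HTR2C, the serotonin receptor 2C, and in the 3 libraries N1, N2 and N3 it came from HTR2C-negative ones, in both cases from mice 8 to 12 weeks old. Cells without conditioned medium were not analysed here. Since the labels do not say that same-group samples came from separate cultures or animals, a p-value here measures their spread, which may be technical.

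The proteasome degrades proteins tagged with ubiquitin. Its 20S core is a barrel of alpha and beta rings, with the proteolytic sites in the beta ring, and its 19S cap binds ubiquitin, unfolds the substrate with a ring of ATPases and feeds it into the core. Interferon gamma induces catalytic beta subunits that replace the constitutive ones during assembly (PSMB8 for PSMB5, PSMB9 for PSMB6 and PSMB10 for PSMB7), giving the immunoproteasome. It also induces the 11S activator made of PSME1 and PSME2. In macrophages this form of the proteasome is known for cutting the peptides shown on MHC class I.

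Total counts were 15545190 to 15728400 with HTR2C-positive and 12843971 to 16031723 with HTR2C-negative medium, and the 48 proteasome genes held 1.25% to 1.34% and 1.26% to 1.29% of them. All 8 macrophage markers examined were detected in all 6 libraries, with a summed level of 22936 to 25742 and 24281 to 26227 CPM (reads scaled to library size, here with TMM factors). Markers of T, B, NK, epithelial and erythroid cells summed to at most 2.71 and 2.03 CPM, those of dendritic cells to 13.7 to 19.7 and 10.5 to 17.8 CPM, of fibroblasts to 55.7 to 71.5 and 54.5 to 64.4 CPM and of alveolar macrophages to 134 to 151 and 138 to 145 CPM. Of 12 neutrophil markers 10 were detected in all libraries. These summed to 1352 to 1539 CPM with HTR2C-positive and 1035 to 1268 CPM with HTR2C-negative medium, with Ly6g and Cxcr2 at 0 in all libraries, and their part in the results below was not tested. Of all pairs from different groups, P1 and N2 were closest (r = 0.986 over log2 CPM of the tested genes). Fold changes followed GC content across genes, with a Spearman correlation of 0.55 over 10162 tested genes and 0.63 over the 46 proteasome genes. Genes of one library share its trend, so this is a description. Fold changes of the genes described in most detail are therefore also given after a trend with GC content and gene length was taken out of each library. That step may remove part of a difference between the media too.

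Stretches of 300 bases around the start sites of 4 members are shown because their genes stand for the patterns that follow, in RefSeq sequence of build GRCm38.p6, 250 bases before to 50 after each start. Capitals mark matches, on either strand, to GAAA, any 2 bases and GAAA (an interferon-stimulated response element) or TGAC, any 3 bases and GCA (an antioxidant response element, the kind of site used by NFE2L1). Psmb8 (chr17:34197945-34198244, plus strand) encodes an immune catalytic subunit, Psmb9 (chr17:34187281-34187580, minus strand) another, Psme1 (chr14:55578244-55578543, plus strand) an 11S subunit, and Psmd12 (chr11:107479278-107479577, plus strand) a scaffold subunit of the 19S lid.
Psmb8: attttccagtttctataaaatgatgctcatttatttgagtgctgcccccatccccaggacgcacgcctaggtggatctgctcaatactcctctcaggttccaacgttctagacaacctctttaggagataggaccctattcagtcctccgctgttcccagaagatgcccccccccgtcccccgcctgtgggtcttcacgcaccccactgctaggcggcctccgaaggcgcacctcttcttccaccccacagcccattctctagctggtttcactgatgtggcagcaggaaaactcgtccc
Psmb9: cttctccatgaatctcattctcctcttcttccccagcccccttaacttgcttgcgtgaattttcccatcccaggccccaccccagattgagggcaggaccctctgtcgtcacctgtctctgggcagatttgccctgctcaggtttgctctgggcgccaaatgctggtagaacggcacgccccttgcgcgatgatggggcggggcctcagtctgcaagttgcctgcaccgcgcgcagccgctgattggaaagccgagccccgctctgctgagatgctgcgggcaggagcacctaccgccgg
Psme1: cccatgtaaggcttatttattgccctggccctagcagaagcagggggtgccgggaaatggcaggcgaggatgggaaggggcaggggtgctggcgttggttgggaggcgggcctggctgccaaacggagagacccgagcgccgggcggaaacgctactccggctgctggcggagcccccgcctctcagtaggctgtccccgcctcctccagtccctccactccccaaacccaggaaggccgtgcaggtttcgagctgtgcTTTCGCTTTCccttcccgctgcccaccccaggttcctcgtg
Psmd12: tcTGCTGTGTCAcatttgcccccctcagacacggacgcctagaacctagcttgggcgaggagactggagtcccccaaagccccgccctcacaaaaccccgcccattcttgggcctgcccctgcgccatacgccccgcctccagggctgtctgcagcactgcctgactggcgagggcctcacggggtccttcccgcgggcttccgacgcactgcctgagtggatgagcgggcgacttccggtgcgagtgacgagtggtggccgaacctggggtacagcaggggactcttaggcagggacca
Psme1 held the response element in reverse, TTTCGCTTTC, 10 to 19 bases after its start, and Psmd12 held the antioxidant-type match in reverse, TGCTGTGTCA, 248 to 239 bases before its start. In the Psmb8 and Psmb9 windows neither set of letters was found. Among the 40 proteasome genes with a RefSeq window, the response element was in 5 (Psmb3, Psmd4, Psmd9, Psme1 and Psmg4). The antioxidant-type letters were in 2 (Psmd12 and Psme4). Over 32851 single windows of the same length the shares were 3.44% and 3.04%. The member counts are of genes with a match in any of their windows, so they are not directly comparable with these shares. These matches are strings of letters and are not shown to be bound. The Psmb9 window overlaps that of Tap1, the peptide transporter gene that starts beside it in the opposite direction, over 275 bases.

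Proteasome transcripts differed widely in level. The deposited FPKM, read counts scaled to gene length and to the library's total, allow a rough comparison between genes. The gene length used was 1872 bases for Psmb6 and 3381 for Psmb8, against 966 and 1907 in their longest GENCODE M21 transcripts. For Psmb5 it was 899 in both, so levels compared between genes are uncertain to that extent. Psmb6, the constitutive caspase-like subunit, had the highest mean, 1085 FPKM with HTR2C-positive and 1018 FPKM with HTR2C-negative medium, and Psme2 followed with 1078 and 988 FPKM, their ranges over libraries overlapping. Over all 6 libraries these ranked 50 and 51 among all genes of the table. The alpha ring gene Psma6 came next with 637 and 605 FPKM. Psmb7, the constitutive trypsin-like subunit, stood 39th in this order, with 6.34 and 6.35 FPKM, far below Psmb6 of the same beta ring. How much of each subunit the rings held was not measured. The lowest tested member was Psmg3 with 0.974 and 0.559 FPKM. Psmb10, the immune counterpart of Psmb7, had 288 FPKM with HTR2C-positive and 214 FPKM with HTR2C-negative medium. Psmb8 had 157 and 136 FPKM and its counterpart Psmb5 136 and 118 FPKM, while Psmb9 had 47.9 and 41.7 FPKM. Psma8, the alpha subunit of testis, had 1 to 9 counts with HTR2C-positive and 5 to 6 counts with HTR2C-negative medium and was not tested. Psmb11, the beta subunit of thymic epithelium, had 0 counts in each library, which allows up to 3 counts or 0.187 to 0.234 CPM, for counting error alone.

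**Figure D1:**
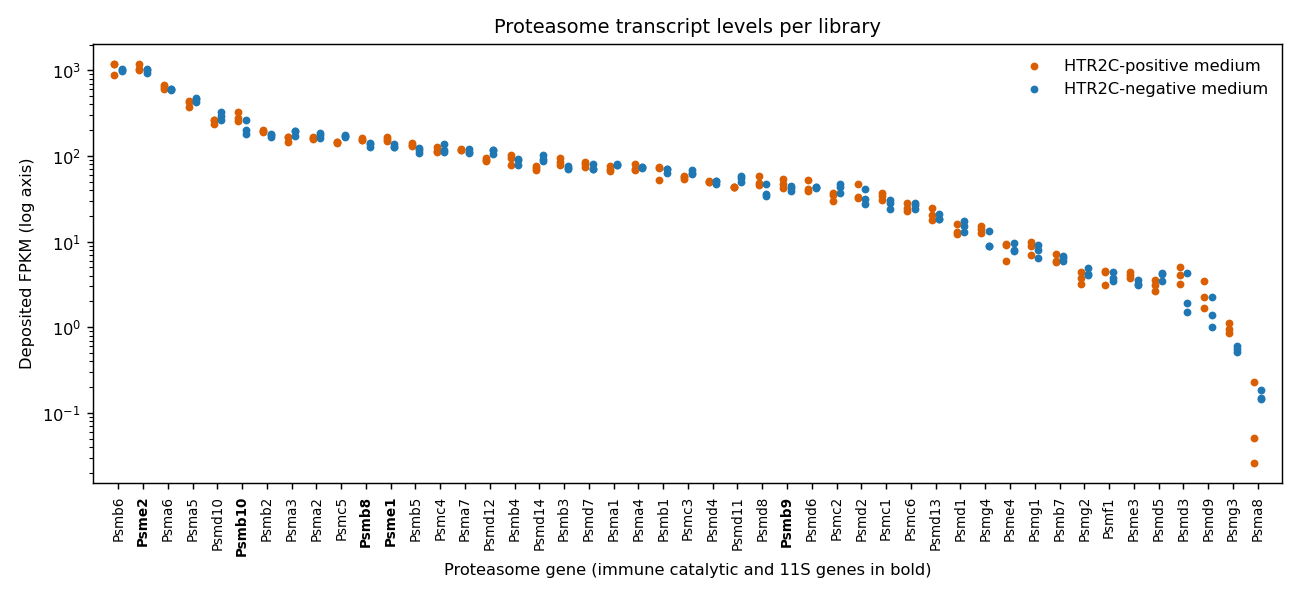
Deposited FPKM (log axis) of 47 proteasome genes in each library, in order of their mean over all 6 libraries, with HTR2C-positive medium in orange and HTR2C-negative medium in blue. Psmb6 and Psme2 stand highest, between 881 and 1190 FPKM, Psmb7 lies in the lower part, and Psmb11, at 0, is not drawn.

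Some of these levels depend on how reads of copied genes were counted, which is not given in the sources used here. Of all 50-base windows of the longest GENCODE M21 transcript, 59.3% in Psme2, 57.1% in Psmb5 and 54.5% in Psma5 also occur in the transcript of another gene, while Psmb8, Psmb9, Psmb10 and Psmb7 shared none and Psmb6 1.74%. For Psme2 that gene is Psme2b, a copy on chromosome 11. Psme2b had 22.03%, 21.98% and 21.92% of the reads of Psme2 in P1, P2 and P3, against 20.75%, 21.51% and 22.63% in N1, N2 and N3, so the groups overlapped. Psme2, Psmb5 and Psma5 levels are uncertain to that extent.

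No proteasome gene passed the correction over all genes. In edgeR's quasi-likelihood test 0 of 46 reached an adjusted p below 0.05 (Psmd14 came closest, with 0.156), and the same held for 0 (0%) of all 10177 genes. With an unadjusted p below 0.05, 0 members were higher with HTR2C-positive medium, where 7.90% of all genes were, and 7 were lower, where 8.71% of all genes were. The groups did not overlap in 13 members, against 22.3% of all genes. DESeq2 also called 0 members at an adjusted p below 0.05, against 5.77% of all genes for which it gave one. It gave an unadjusted p below 0.05 to 8 members, all lower, where 8.86% of all genes were lower and 7.67% higher. The log2 fold changes, HTR2C-positive over HTR2C-negative medium throughout, ran from -0.53 (Psmd14) to 0.67 (Psmg3) with a median of -0.08, beside 0.02 over all genes. Of the 46, 16 were positive, where 52.1% of all genes were. With scaling by library totals alone the median of all genes moved to 0.16 and that of the members to 0.06, and 27 of 46 were positive. With that scaling 2 members were higher and 3 lower with an unadjusted p below 0.05, where 11.3% and 3.83% of all genes were. In the text below, lower and higher are therefore relative to the bulk of genes, and in bulk RNA a lower share of expressing cells and less RNA per cell cannot be told apart.

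The immune catalytic genes were abundant in both groups and differed little between them. Psmb8 (ENSMUSG00000024338, chromosome 17, 34416695 to 34420428, GRCm39), the chymotrypsin-like immune subunit, was at 464, 575 and 489 CPM in P1, P2 and P3, against 494, 454 and 502 CPM in N1, N2 and N3. The groups overlapped, and the log2 fold change was 0.07 (SE 0.15, unadjusted p = 0.625 by edgeR), or -0.085 with the GC and length trend taken out. Psmb9 (ENSMUSG00000096727, chromosome 17, 34400961 to 34406738), which takes the place of PSMB6 and cuts after hydrophobic residues, was at 177, 178 and 146 CPM in P1, P2 and P3, against 163, 153 and 165 CPM in N1, N2 and N3. Its groups overlapped as well, with P3 the lowest of all libraries, and the log2 fold change was 0.06 (SE 0.15), or -0.21 with the trend taken out. Tap1, which shares the start region shown above, was at 304, 249 and 213 CPM with HTR2C-positive and 167, 207 and 188 CPM with HTR2C-negative medium, groups that do not overlap (log2 fold change 0.45, SE 0.17, unadjusted p = 0.0181 and adjusted p = 0.208 by edgeR), or 0.06 with the trend taken out. Tap1 is one of 9 class I loading genes, of which 3 had fold changes of the other sign. They were Erap1 (-0.48, SE 0.17), Pdia3 (-0.40, SE 0.14) and B2m (-0.10, SE 0.17), or -0.26, -0.27 and 0.19 with the trend taken out. The difference between Tap1 and Psmb9 was not tested.

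Psmb10 (ENSMUSG00000031897, chromosome 8, 106662367 to 106665076), the trypsin-like immune subunit, had the highest fold change of the 3. It was at 497, 496 and 411 CPM in P1, P2 and P3, against 349, 420 and 367 CPM in N1, N2 and N3. P1 and P2 stood above all others, while P3 lay under N2. The log2 fold change was 0.31 (SE 0.15, unadjusted p = 0.0667 and adjusted p = 0.333 by edgeR) and became 0.01 with the GC and length trend taken out.

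The 11S genes lay close to 0. Psme1 (ENSMUSG00000022216, chromosome 14, 55815580 to 55818986) was at 325, 345 and 333 CPM in P1, P2 and P3, against 321, 292 and 305 CPM in N1, N2 and N3. It was the one immune member whose groups did not overlap, which in this direction held for 10.9% of all genes. The gap between P1 and N1 was under the SD of either group (10.05 and 14.6 CPM, n = 3), and the log2 fold change was 0.13 (SE 0.14, adjusted p = 0.679 by edgeR), or -0.16 with the trend taken out. Psme2 (ENSMUSG00000079197, chromosome 14, 55824898 to 55828570), its partner, was at 1598, 2180 and 1699 CPM in P1, P2 and P3, against 2078, 1550 and 1897 CPM in N1, N2 and N3. Here the highest and the second lowest library were both from HTR2C-positive medium (log2 fold change -0.01, SE 0.18). Counted together with Psme2b, an alternative chosen after seeing the data, Psme2 had a log2 fold change of -0.01 as well.

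Over these 5 immune genes the median log2 fold change was 0.07, with 4 positive, and 0.011 to 0.16 when single libraries were left out. With the GC and length trend taken out it was -0.13 with 1 positive, so the direction of the immune genes depends on that step. They are richer in GC (median 54.1%) than the tested genes as a whole (48.9%).

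Among the constitutive catalytic genes the groups overlapped in each case. Psmb5 (chromosome 14, 54851576 to 54855479), chymotrypsin-like, was at 108, 123 and 120 CPM in P1, P2 and P3, against 112, 106 and 115 CPM in N1, N2 and N3 (log2 fold change 0.08, SE 0.14, and -0.28 with the GC and length trend taken out). Psmb6 (chromosome 11, 70416193 to 70418684) was at 1464, 2319 and 2083 CPM in P1, P2 and P3, against 2151, 1750 and 2123 CPM in N1, N2 and N3 (-0.04, SE 0.19). P1 was the lowest of the 6 libraries for Psmb6 and for Psmb7, but not for Psmb5. Psmb7 (chromosome 2, 38478048 to 38534099) was at 17.5, 21.4 and 23.3 CPM in P1, P2 and P3, against 22.8, 21.7 and 23.9 CPM in N1, N2 and N3 (-0.14, SE 0.18, and 0.16 with the trend taken out). The median of the 3 was -0.04, and 0.15 without library P1.

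**Figure D2:**
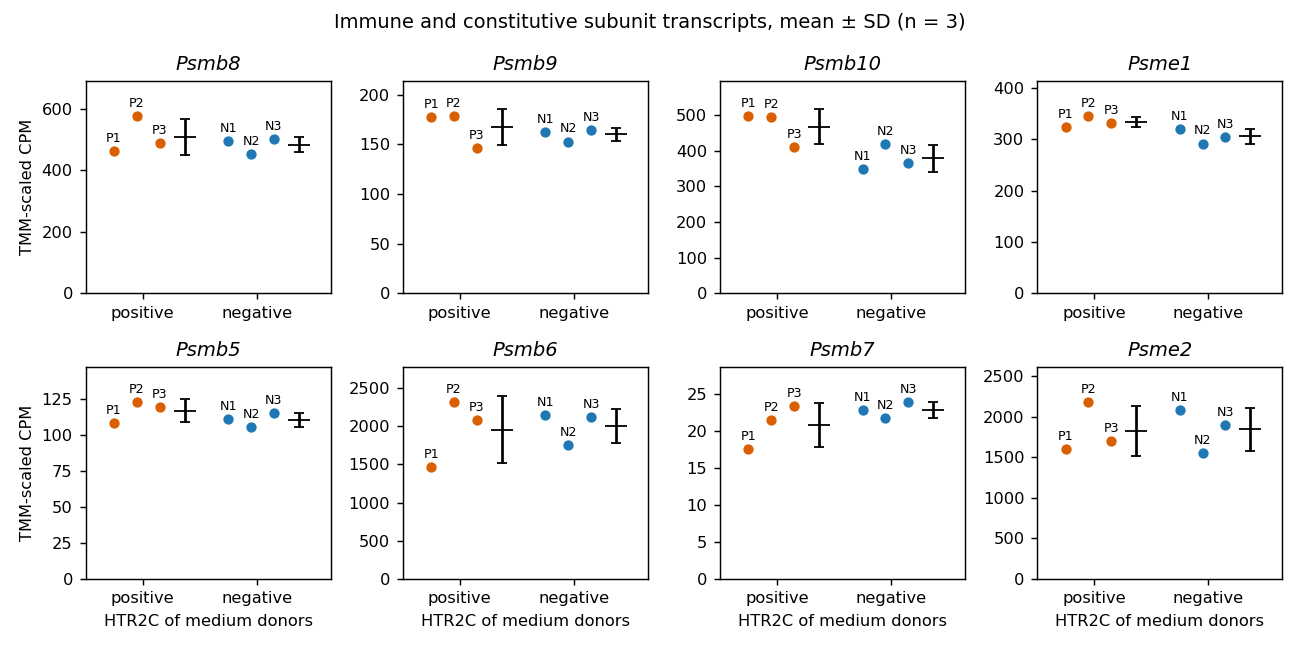
TMM-scaled CPM of the immune genes Psmb8, Psmb9, Psmb10, Psme1 and Psme2 and of the constitutive catalytic genes Psmb5, Psmb6 and Psmb7, each point a library, with mean and SD (n = 3) beside each group and axes from 0. The groups overlap in each panel but that of Psme1, where P1 at 325 CPM lies just above N1 at 321 CPM.

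Since an immune subunit takes the place of a constitutive one, the ratio of the paired transcripts within a library was compared, which does not depend on library scaling. The log2 ratio of FPKM of Psmb8 to Psmb5 was 0.19, 0.31 and 0.12 in P1, P2 and P3, against 0.24, 0.19 and 0.21 in N1, N2 and N3. The means differed by -0.01 (exact 2-sided permutation p = 0.8), and the HTR2C-positive libraries lay on both sides of the others. That of Psmb9 to Psmb6 was -4.01, -4.67 and -4.80 in P1, P2 and P3, against -4.69, -4.48 and -4.65 in N1, N2 and N3. P1 stood apart there, and the means differed by 0.12 (exact permutation p = 0.9), which became -0.12 without P1. That of Psmb10 to Psmb7 was 5.83, 5.54 and 5.14 in P1, P2 and P3, against 4.94, 5.28 and 4.95 in N1, N2 and N3. The groups overlapped by P3 and N2, and the means differed by 0.45 (exact permutation p = 0.2), which became 0.29 without P1 and -0.14 with the GC and length trend taken out. Adjusted over the 3 ratios the exact p-values were 0.9, 0.9 and 0.6, and 3 against 3 libraries cannot give less than 0.10.

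**Figure D3:**
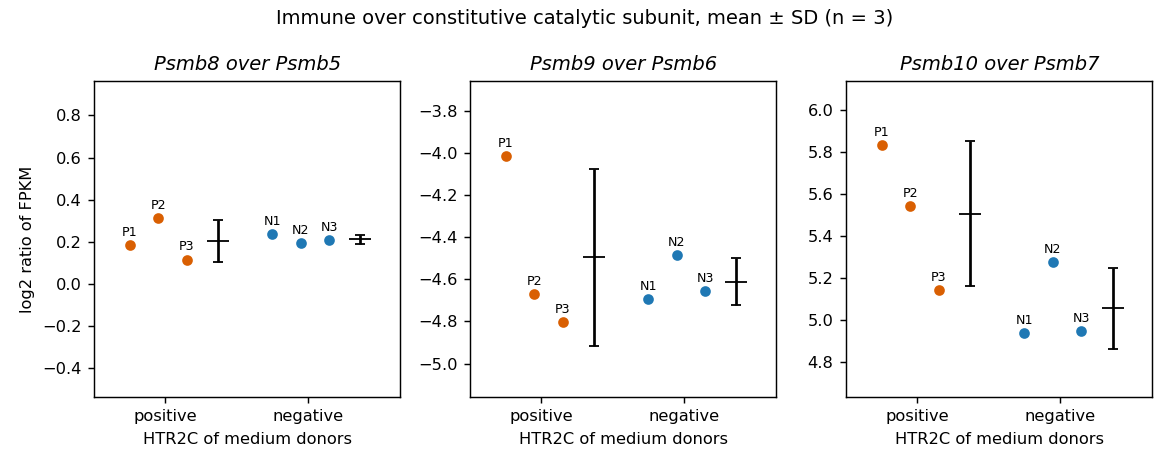
Log2 ratio of FPKM of each immune catalytic gene to the constitutive gene it replaces, each point a library, with mean and SD (n = 3), and the same span on each vertical axis. The groups overlap in all 3 panels, most closely for Psmb8 over Psmb5 and with P1 apart for Psmb9 over Psmb6.

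The 19S cap held 6 of the 7 members that were lower with an unadjusted p below 0.05, and its assembly factor Psmd5 was the other. Of 17 subunit genes with Psmc or Psmd names, 13 had a negative fold change, with a median of -0.19. With an unadjusted p below 0.05, 6 were lower and 0 higher (8.71% and 7.90% of all genes). In 7 the groups did not overlap with HTR2C-positive medium lower, and in 1 with it higher (11.5% and 10.9% of all genes). None passed the adjusted threshold. With the GC and length trend taken out the median was -0.23, and 4 subunits were lower and 0 higher with an unadjusted p below 0.05, where 5.93% and 4.19% of all genes then were. Scaled by library totals alone it was -0.06, beside 0.16 over all genes. Adrm1 and Sem1, cap subunit genes with other names, are not among the 17 and are listed with the partners below. They had log2 fold changes of 0.09 (SE 0.16) and 0.25 (SE 0.16), or -0.27 and 0.50 with the trend taken out.

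In the lid of the cap, Psmd14 (ENSMUSG00000026914, chromosome 2, 61542038 to 61630720), the deubiquitinase that cuts ubiquitin chains off the substrate, was at 172, 212 and 204 CPM in P1, P2 and P3, against 330, 233 and 284 CPM in N1, N2 and N3. The groups did not overlap, and N2 was the nearest of its group to the others. The log2 fold change was -0.53 (SE 0.17, unadjusted p = 0.00725 and adjusted p = 0.156 by edgeR, adjusted p = 0.0570 by DESeq2), and -0.24 with the trend taken out. Psmd12 (ENSMUSG00000020720, chromosome 11, 107370310 to 107395188), whose start region is shown above, was at 210, 239 and 235 CPM in P1, P2 and P3, against 354, 264 and 333 CPM in N1, N2 and N3. Again no library crossed over and N2 was the closest (log2 fold change -0.48, SE 0.16, and -0.36 with the trend taken out). Psmd11 (ENSMUSG00000017428, chromosome 11, 80319441 to 80364074), another lid scaffold, was at 246, 291 and 264 CPM in P1, P2 and P3, against 402, 299 and 401 CPM in N1, N2 and N3 (-0.46, SE 0.16, and -0.20 with the trend taken out). In Psmd11 P2 and N2 were nearly level.

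Of the 6 ATPase genes, which encode the motor of the cap, 5 had a negative fold change and 3 were lower with an unadjusted p below 0.05, where 8.71% of all genes were. Psmc5 (chromosome 11, 106146980 to 106153946) was at 180, 209 and 188 CPM in P1, P2 and P3, against 270, 221 and 267 CPM in N1, N2 and N3 (log2 fold change -0.39, SE 0.15, unadjusted p = 0.0209 by edgeR). With the GC and length trend taken out it stood at -0.47. Psmc3 (chromosome 2, 90884354 to 90896714) was at 134, 148 and 138 CPM in P1, P2 and P3, against 187, 169 and 172 CPM in N1, N2 and N3 (-0.33, SE 0.14), a separation wider than the spread of either group. With the trend taken out its log2 fold change was -0.58, the lowest edgeR adjusted p of all members then being its own, 0.252. Psmc2 (chromosome 5, 21990281 to 22008785) was at 132, 195 and 164 CPM in P1, P2 and P3, against 271, 175 and 238 CPM in N1, N2 and N3, with P2 above N2 (-0.48, SE 0.19, and -0.24 with the trend taken out). Psmc4 and Psmc6 also had groups without overlap, at log2 fold changes of -0.19 and -0.20, the second becoming 0.16 with the trend taken out. Psmc1 was the one ATPase gene with a positive value, 0.16 (SE 0.16).

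The other cap subunits had values on both sides of 0. Psmd1, a scaffold of the base, had a log2 fold change of -0.29 (SE 0.15), and the lid subunits Psmd6 and Psmd13 had -0.10 and -0.01, or 0.037 and -0.23 with the trend taken out. Psmd7, the partner of PSMD14, was the steadiest member of all, at 170, 173 and 174 CPM with HTR2C-positive and 183, 173 and 171 CPM with HTR2C-negative medium, a coefficient of variation of 2.57% over the 6 libraries. The median was 14.0% over the tested members and 23.9% over all tested genes. Psmd4, a ubiquitin receptor of the cap, and Psmd2, a scaffold of its base, had log2 fold changes of -0.11 and 0.05, or -0.26 and -0.070 with the trend taken out. Psmd3, a lid scaffold, varied most (34.8%), at 22.4, 16.6 and 19.04 CPM in P1, P2 and P3, against 10.8, 20.3 and 8.07 CPM in N1, N2 and N3. Its log2 fold change of 0.57 (SE 0.29, adjusted p = 0.346 by edgeR) became 1.05 without N2 (adjusted p = 0.0488 by edgeR) and 0.23 with the trend taken out. Psmd8 was at 160, 147 and 139 CPM with HTR2C-positive and 120, 137 and 119 CPM with HTR2C-negative medium, without overlap (0.25, SE 0.14, and 0.097 with the trend taken out).

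**Figure D4:**
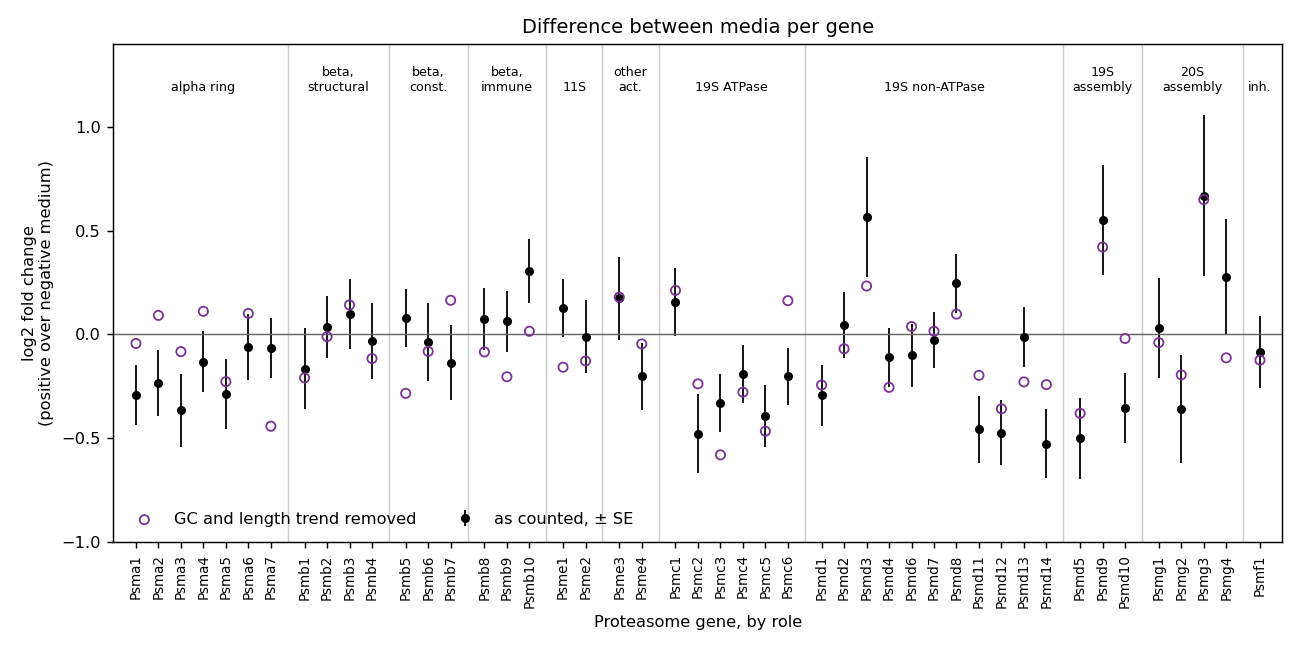
Log2 fold change (HTR2C-positive over HTR2C-negative medium) of the 46 tested members by role, as counted (filled points, bars ± SE) and with the GC and length trend taken out (open points). The 19S genes Psmd14, Psmd12, Psmd11 and Psmc2 lie near -0.50 as counted, the immune genes lie between -0.01 and 0.31, and the step moves GC-rich genes such as Psmb5 down and GC-poor ones such as Psmb7 up.

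Assembly factors of the cap went both ways. Psmd5, a chaperone of its base, was at 23.2, 23.3 and 18.1 CPM in P1, P2 and P3, against 33.9, 23.7 and 33.9 CPM in N1, N2 and N3. The groups did not overlap, though P2 and N2 were nearly level (log2 fold change -0.50, SE 0.20, adjusted p = 0.230 by edgeR). With the trend taken out the log2 fold change of Psmd5 was -0.38 (unadjusted p = 0.0665 by edgeR). Psmd10, which encodes gankyrin, was at 340, 402 and 331 CPM with HTR2C-positive and 540, 371 and 462 CPM with HTR2C-negative medium (-0.36, SE 0.17, and -0.02 with the trend taken out). Psmd9 was at 22.5, 12.84 and 15.4 CPM with HTR2C-positive and 8.40, 15.3 and 10.9 CPM with HTR2C-negative medium, so that P1 was highest and N1 lowest. Its log2 fold change of 0.55 (SE 0.27) was 0.31 without P1, 0.37 without N1 and 0.42 with the trend taken out.

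In the alpha ring, which gates the entry to the core, all 7 tested genes had a negative fold change, from -0.37 to -0.06 with a median of -0.24. Of all genes, 4876 of 10177 had a negative one. But 0 of the 7 had an unadjusted p below 0.05, where 8.71% of all genes were lower and 7.90% higher. Psma3 had the lowest, at 502, 676 and 615 CPM in P1, P2 and P3, against 863, 631 and 820 CPM in N1, N2 and N3 (SE 0.17, unadjusted p = 0.0545 by edgeR, and -0.084 with the trend taken out). Psma1 was the one alpha gene without overlap (-0.29, SE 0.14, and -0.044 with the trend taken out), which in this direction held for 11.5% of all genes. Psma5 was at -0.29 (SE 0.17, and -0.23). The alpha ring genes are poor in GC (median 45.0%), and with the trend taken out their median became -0.04 with 3 positive. Of them 1 (Psma7, at -0.44) was then lower with an unadjusted p below 0.05, where 5.93% of all genes were. In the beta ring, the structural genes Psmb1, Psmb2, Psmb3 and Psmb4 lay between -0.17 and 0.10, each with overlapping groups.

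The remaining members act on the core from outside or help to build it. Psme3, the nuclear homolog of the 11S genes, was at 11.5, 11.6 and 11.3 CPM with HTR2C-positive and 10.7, 10.04 and 9.81 CPM with HTR2C-negative medium (0.17, SE 0.20). Psme4, which encodes the activator PA200, was lowest in P2 at 51.9 CPM, while the other HTR2C-positive libraries had 69.2 and 72.7 CPM and the HTR2C-negative ones 69.4 to 77.0 CPM (-0.20, SE 0.16). Psmf1, the inhibitor PI31, had -0.09 (SE 0.17). Of the core chaperone genes Psmg1 to Psmg4, Psmg3 had the largest fold change of all members, 0.67 (SE 0.39, adjusted p = 0.405 by edgeR), on 39 to 50 reads with HTR2C-positive and 19 to 26 reads with HTR2C-negative medium. Psmg2 had -0.36 (SE 0.26), Psmg4 0.28 (SE 0.28) and Psmg1 0.03 (SE 0.24). With the trend taken out the 4 core chaperone genes had -0.040 (Psmg1), -0.20 (Psmg2), 0.65 (Psmg3) and -0.11 (Psmg4).

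Many members deviated in the same direction within a library. The median deviation of the 46 members from each gene's own mean was -0.14, 0.02 and -0.05 log2 units in P1, P2 and P3, against 0.13, -0.07 and 0.09 in N1, N2 and N3, while over all tested genes it lay between -0.0021 and 0.028. For the 19S subunits it was -0.03, -0.01 and -0.19 in P1, P2 and P3, against 0.10, -0.01 and 0.11 in N1, N2 and N3, so N2 was level with P2. The count of 7 members lower with an unadjusted p below 0.05 was 2 without N1, 1 without N3 and 3 without P3. Of all genes, 4.32%, 5.38% and 6.78% were then lower by that measure. It was 5 to 10 without any other single library, where 7.53% to 9.74% of all genes were. Without both N2 and P1 the count was 13, where 12.7% of all genes were lower. Then 8 members passed an adjusted p of 0.05 by edgeR (7 lower, and Psmd3 higher), where 1107 of 10156 genes were called. Those libraries were left out because they resembled each other across groups, which by construction widens the difference between groups.

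**Figure D5:**
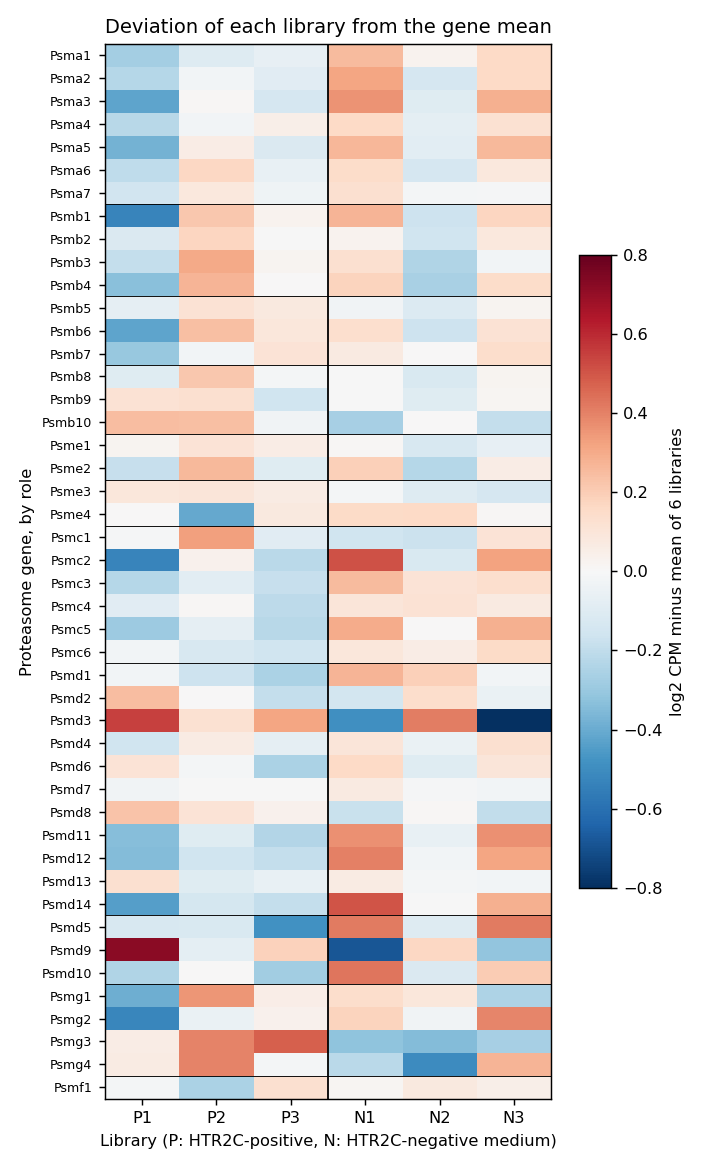
Log2 CPM of each tested member in each library minus the gene's mean over the 6 libraries, grouped by role, with HTR2C-positive libraries left of the line. For the alpha ring the median is lowest in P1 (-0.23) and highest in N1 (0.25), and for the 19S ATPases it is lowest in P3 (-0.19) and highest in N1 (0.18).

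Genes that belong to the proteasome or work with it but carry other names were described beside the members. Of 12 partners, 3 were lower and 0 higher with an unadjusted p below 0.05, where 8.71% and 7.90% of all genes were, with a median log2 fold change of -0.08. With the trend taken out 0 were lower and 1 (Sem1, at 0.50) was higher, where 5.93% and 4.19% of all genes were. The 3 lower ones were Uchl5 and Usp14, the deubiquitinases that dock on the cap, and Ecpas, which acts as its adaptor. Usp14 was at 67.7, 61.8 and 65.0 CPM in P1, P2 and P3, against 95.7, 85.9 and 89.3 CPM in N1, N2 and N3 (-0.48, SE 0.14, adjusted p = 0.139 by edgeR, and -0.20 with the trend taken out). Uchl5 had -0.67 (SE 0.21, and -0.29 with the trend taken out) and Ecpas -0.46 (SE 0.18, and -0.31). Pomp, a chaperone of core assembly, had -0.04 (SE 0.17).

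Genes of the NFE2L1 pathway, by which cells raise proteasome transcription when proteasomes fall short, had positive fold changes in 7 of 10 cases, where 52.1% of all genes had. Of the 10, 5 were higher and 0 lower with an unadjusted p below 0.05 (7.90% and 8.71% of all genes), with a median of 0.38. With the trend taken out 2 were higher and 0 lower (4.19% and 5.93% of all genes), with a median of 0.12. Nfe2l1, the transcription factor itself, was at 26.9, 28.9 and 29.3 CPM in P1, P2 and P3, against 14.6, 18.4 and 17.3 CPM in N1, N2 and N3. The groups lay well apart, but the log2 fold change of 0.75 (SE 0.17) failed the correction in edgeR (adjusted p = 0.0859) and was 0.44 with the trend taken out. Its dimer partners Maff and Mafg had 1.09 (SE 0.37) and 0.57 (SE 0.21), and Vcp, the segregase that releases it from the membrane, 0.41 (SE 0.16). With the trend taken out these were 0.76, 0.22 and 0.34. Syvn1, also higher with an unadjusted p below 0.05, had 0.43 (SE 0.19), or 0.017 with the trend taken out. Mafk and Sel1l had 0.35 (SE 0.23) and 0.24 (SE 0.19), or -0.046 and 0.26 with the trend taken out. Maff rested on 52 to 79 reads with HTR2C-positive and 16 to 37 reads with HTR2C-negative medium. The 3 genes with negative values were Nfe2l2 (-0.22, SE 0.15), Ngly1 (-0.20, SE 0.20) and Ddi2 (-0.0039, SE 0.20). Those became -0.12, 0.025 and -0.020 with the trend taken out.

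Some genes by which interferon gamma induces the immune subunits were read beside them, and none passed the adjusted threshold. Irf1, a transcription factor of Psmb9 and Tap1, was at 137, 151 and 155 CPM in P1, P2 and P3, against 106, 105 and 127 CPM in N1, N2 and N3 (0.39, SE 0.15, adjusted p = 0.216 by edgeR, and 0.18 with the trend taken out). Irf8 had 0.34 (SE 0.22), with P1 at 185 CPM and all other libraries between 97.3 and 105 CPM, and the receptor gene Ifngr2 0.26 (SE 0.17), or 0.15 and 0.21 with the trend taken out. Nlrc5, a coactivator of MHC class I genes, had 0.06 (SE 0.18), or -0.19 with the trend taken out.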

How the data were processed

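RNA-seq libraries of 6 samples (3 per group) were analysed. Per the labels' protocols, Trizol was used for RNA and the VAHTS Universal V6 kit for libraries. Tools named in the submitters' processing notes are edgeR, fastp, HISAT2 and StringTie, with build GRCm39. Their versions, strand use and the counting of reads with several matches were not given in the sources used here. Read counts, as deposited, are whole numbers per gene without normalization, per the file headers. The deposited FPKM values equal count over gene length and total count (largest relative difference 3.80e-07).

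Counts were tested in R 4.3.3 with edgeR 4.0.16 (filterByExpr, TMM, robust quasi-likelihood test, no covariates), with Benjamini-Hochberg adjustment over all 10177 tested genes and a threshold of 0.05. The SE was derived from the fold change and the F statistic. The script was tested on simulated data. Ratios of FPKM were compared by exact permutation of the 6 samples. GC content came from GENCODE M21 transcripts (another build, not used for coordinates). The trend was fitted to each library by splines with 4 degrees of freedom each for GC content and log2 length and entered as an offset. Every member and list was chosen with earlier results of these data known. Described in full were 8 catalytic and 11S genes, then per role or list the 3 genes with the smallest p and, for the 19S classes, the extremes. Tap1, Psmd7 and other genes named beyond these were chosen after their values were seen. Alternatives included DESeq2 1.42.0 and limma-voom (limma 3.58.1). One item of the lists is not reported here.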

Additional observations from a re-analysis of the deposited data

How the results depend on the processing

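The count of 0 members past the adjusted threshold was 0 to 1 when single libraries were left out, where 0 to 206 of all genes were past it. Without both N2 and P1 it was 8, where 1107 of 10156 genes were. The count of 0 higher members with an unadjusted p below 0.05 was 1 by limma-voom (7.52% of all genes), 2 without a count filter (7.79%) and 2 with library totals alone (11.3%). It was 3 without N2 and P1 (11.2%) and 0 to 3 without single libraries (3.74% to 10.3%). That of 7 lower members was 3 with totals alone (3.83% of all genes), 2 with a replicate block (6.10%) and 2 with the block and the GC and length trend taken out (4.04%). It was 13 without N2 and P1 (12.7%) and 1 to 10 without single libraries (4.32% to 9.74%). Deviations of same-numbered libraries correlated at -0.15, -0.23 and 0.05, and those of differently numbered ones at -0.16 to 0.31. Taken from a mean of only 3 libraries, such values cannot decide whether equal numbers pair samples, which the labels do not say. The block called 0 members, and 0 of all genes, at the adjusted threshold. The median of all members, -0.08, was 0.062 with totals alone, -0.025 without P1, -0.036 without N1, -0.16 without P2 and -0.15 without N2. The median of the immune and 11S genes, 0.07, was -0.13 with the trend taken out (also with the block) and 0.21 with totals alone, and 0.011 (without P2) to 0.16 (without P1) without single libraries. The median of the constitutive catalytic genes was -0.16 to 0.15 without single libraries, and that of the 19S genes was -0.057 with totals alone. With the trend taken out, the difference of the ratio of Psmb8 to Psmb5 was 0.19, of Psmb9 to Psmb6 -0.10 and of Psmb10 to Psmb7 -0.14, and without single libraries the first was -0.062 to 0.036 and the second -0.12 to 0.27. Of 46 members 15 turned sign with the trend taken out, among them (in brackets with the block too) Psmb8 -0.085 (-0.091), Psmb9 -0.21 (-0.20), Psme1 -0.16 (-0.16), Psmb5 -0.28 (-0.29), Psmb7 0.16 (0.16), Psmg4 -0.11 (-0.10) and Psmb2 -0.012 (-0.011), and Psmc6, Psmd2, Psmd6, Psmd7, Psma2, Psma4, Psma6 and Psmg1. With totals alone Psme2 had 0.12, Psmb6 0.092 and Psmf1 0.056. Psme2 had 0.0076 without a count filter, and Psmb6 0.057 without N2 and P1. Without single libraries Psmb8 ran from -0.023 to 0.16, Psme2 from -0.16 to 0.093, Psmb6 from -0.18 to 0.15, Psmb1 from -0.33 to 0.038, Psmb3 from -0.044 to 0.23, Psmb2 from -0.049 to 0.12 and Psmf1 from -0.17 to 0.011. The cause of these shifts was not tested. Psmb11, Psma8 and Psmg3 are limited by depth.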
